A study of Arabidopsis thaliana with 4 samples.

Results

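GH3 auxin-conjugating enzymes were followed on 4 arrays of Arabidopsis seedlings in which the MYB-like transcription factor KUODA1 (KUA1) was induced. The 7 genes considered were GH3.1, GH3.2, GH3.3, GH3.4, GH3.5, GH3.6 and GH3.17, taken by their locus. Of these, 4 could be matched to a probe set, which is the group of oligonucleotides on the array that reports 1 transcript. They were GH3.1 (AT2G14960), GH3.3 (AT2G23170), GH3.5 (AT4G27260, also named WES1) and GH3.17 (AT1G28130), out of 13364 genes with a named probe set and 22746 probe sets tested. The platform table used for naming leaves 8730 of these probe sets unlisted, and GH3.2, GH3.4 and GH3.6 were not analysed here. The genes were chosen by their signals on these arrays, in that the estradiol against mock values were already known, so their values below are a description and carry no test.

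GH3 proteins are acyl acid amido synthetases. They activate a small acidic hormone with ATP and join it to an amino acid. The enzymes considered here act on indole-3-acetic acid (IAA), the main auxin, and so lower the pool of free auxin by turning it into conjugates such as IAA-aspartate and IAA-glutamate. The family is named after an auxin-induced transcript of soybean, and several of its Arabidopsis members, GH3.3 among them, are themselves switched on by auxin through the auxin response factors, which closes a feedback loop on hormone level.

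Both groups consisted of 14-day-old whole KUA1-IOX seedlings, stable transgenics of the T3 generation in the Col-0 ecotype. They carry the chimeric factor XVE, made constitutively, which enters the nucleus when estradiol is given and drives KUA1 from a LexA promoter. Estradiol seedlings received 15 µM estradiol in liquid medium for 4 h, and mock seedlings received ethanol, the solvent, for 4 h. RNA of 2 biological replicates per group was hybridized to Affymetrix ATH1 arrays, 1 array each. The labels call the genotype of the mock samples a control in one field and KUA1-IOX in another, and the methods, which describe both groups as KUA1-IOX, are followed here. No array holds estradiol-treated seedlings without the construct, so the effects of estradiol and of KUA1 cannot be told apart. The sources used here do not say how many lines lie behind the samples or how many seedlings each holds.

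The deposited values are MAS5 signals on a linear scale. KUA1 itself had signals of 1887 and 3373 on the estradiol arrays, against 203 and 170 on the mock arrays, in the direction its label gives. Its log2 fold change, the difference of mean log2 signals, was 3.76 with a standard error (SE) of 0.29 (limma, adjusted p = 0.158). Over all 22746 probe sets, limma at an adjusted p under 0.05 called 0 as higher and 0 as lower, whereas 1481, or 6.51%, had an unadjusted p under 0.05. A probe set is called dim where the mean of its log2 signals in a group ranked in the lowest 40% of probe sets. On single arrays the 40th percentile was a signal of 21.7 to 23.5. The leaf gene RCA, which encodes Rubisco activase, had signals of 2298 and 2624 after estradiol and 2622 and 2693 after mock, as a green tissue gene of the labelled seedlings. Of 5 markers of root hairs, 4 had a named probe set, and in all 4 both estradiol arrays lay below both mock arrays, as in 18.0% of all probe sets. The summed signal of the 4 was 82.2 and 63.3 after estradiol and 139 and 275 after mock, and none was at 0. PRP3 and PRP1 among them could be named only through the study's list of genes changed on these same arrays, which also holds EXPA18, so count and sum are partly set by that choice. The expansins EXPA7 and EXPA18 alone summed to 40.5 and 36.7 after estradiol and 62.8 and 102 after mock. EXPA18 and PRP3 were dim after estradiol, and PRP3 had signals of 39.1 and 105 after mock. In RNA of whole seedlings, fewer cells of a type and less RNA per cell cannot be told apart. The part of these cells in the GH3 values was not tested.

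GH3.3, an IAA-amido synthetase that responds quickly to auxin, was the measured member whose groups stood apart. Its signal was 66.3 and 53.2 on the estradiol arrays, against 14.9 and 34.1 on the mock arrays. Both estradiol arrays were above both mock arrays, and the mock arrays differed more from each other than the estradiol arrays did. The mean signal was 59.8 ± 9.25 after estradiol and 24.5 ± 13.5 after mock (SD, n = 2 each). On the log2 scale the difference was 1.40 with a standard error of 0.42, or 2.64-fold between geometric means. A single estradiol array exceeded a single mock array by 1.56-fold at the least, for estradiol replicate 2 over mock replicate 2, and by 4.44-fold at the most, for estradiol replicate 1 over mock replicate 1. The size of the difference thus followed the choice of mock array. The log2 fold change was 0.80 without mock replicate 1 and 1.99 without mock replicate 2, and it stayed between 1.24 and 1.56 when either estradiol array was left out. The lower mock array lay under that array's 40th percentile. On log2(signal + 32), an offset that damps low signals, the value was 0.72, and with every low signal set to the 40th percentile of its array it was 1.13.

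GH3.5, which conjugates IAA and also salicylic acid and is known for its part in stress and pathogen responses, varied widely within both groups. Its signal was 104 and 266 on the estradiol arrays, against 284 and 138 on the mock arrays. The groups overlapped throughout, with estradiol replicate 2 and mock replicate 1 high and estradiol replicate 1 and mock replicate 2 low. The mean signal was 185 ± 114 after estradiol and 211 ± 104 after mock (SD, n = 2 each), a log2 fold change of -0.25 (SE 0.52.) The estradiol arrays lay 2.55-fold apart and the mock arrays 2.07-fold apart, each more than the 1.19-fold between the groups' geometric means. The direction itself turned with the arrays used, since its log2 value was -0.92 with estradiol replicate 2 left out and -0.77 with mock replicate 2 left out, but 0.43 with estradiol replicate 1 left out and 0.27 with mock replicate 1 left out. A spread of this size was uncommon among probe sets of sufficient signal, though the limit was set by GH3.5 itself. Of the 14060 probe sets that were not dim in both groups, 53 (0.377%) were at least as far apart as GH3.5 within both groups. High on the same arrays were 7 of these, GH3.5 included. Across the 14060, the log2 differences between replicates 1 and 2 in estradiol and in mock were correlated at r = -0.30.

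**Figure D1:**
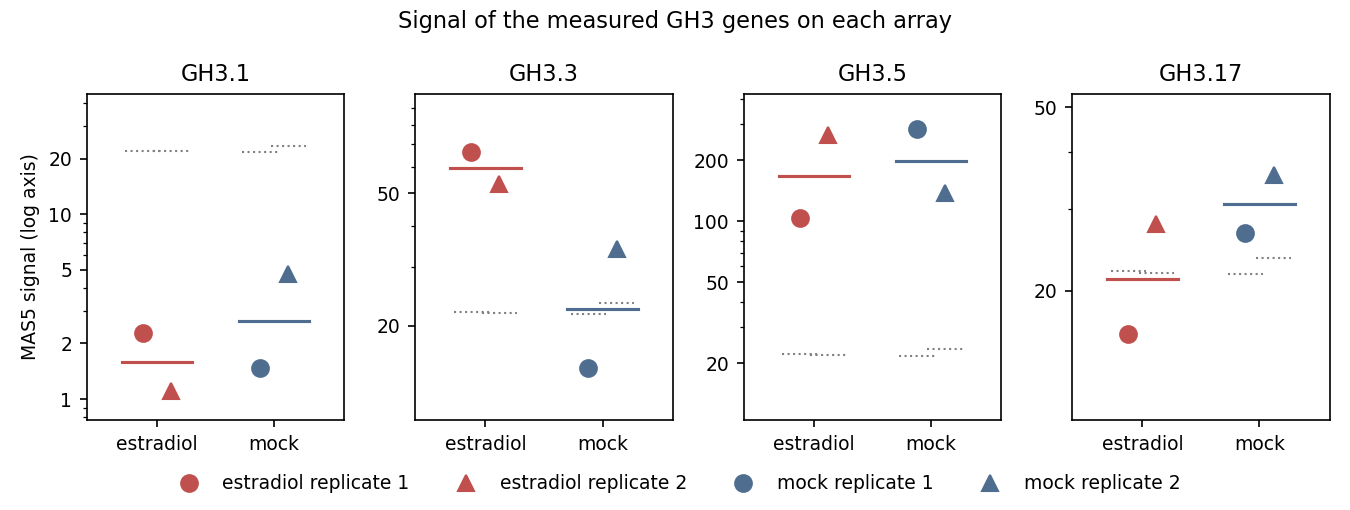
MAS5 signal (log axis, a different range in each panel) of the measured GH3 genes in estradiol and mock seedlings, with 1 symbol per array, a coloured line at the geometric mean of each group and a dotted grey line at each array's 40th percentile of all probe sets. GH3.3 is the panel in which both estradiol arrays (66.3 and 53.2) lie above both mock arrays (14.9 and 34.1), GH3.5 overlaps fully, and GH3.1 lies under the dotted lines on every array.

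GH3.17, which prefers glutamate as the amino acid it joins to IAA, gave signals near the limit used here for dim probe sets. They were 16.1 and 27.9 on the estradiol arrays, against 26.6 and 35.7 on the mock arrays. Estradiol replicate 1 was the lowest and mock replicate 2 the highest of the 4, while estradiol replicate 2 and mock replicate 1 were 1.05-fold apart, so the groups overlapped. The mean signal was 22.0 ± 8.37 after estradiol, where the probe set was dim, and 31.1 ± 6.38 after mock (SD, n = 2 each). The log2 fold change was -0.54 with a standard error of 0.36. It remained below 0 whichever array was left out, between -0.94 without estradiol replicate 2 and -0.14 without estradiol replicate 1. With low signals raised to the 40th percentile it was -0.31.

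GH3.1, another IAA-amido synthetase, was dim in both groups. Its signal was 2.27 and 1.10 on the estradiol arrays, against 1.47 and 4.77 on the mock arrays. Mock replicate 2 was the highest array and estradiol replicate 2 the lowest, and the groups overlapped. The log2 fold change of -0.75 had a standard error of 0.80, and it was -1.59 without mock replicate 1 and 0.10 without mock replicate 2. Every array lay under its 40th percentile, so with low signals raised to that percentile GH3.1 has no value, and on log2(signal + 32) its value was -0.059. A difference in GH3.1 was not detectable at these signals.

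The log2 fold changes of the 4 genes ran from -0.75 to 1.40. In 1 of 4, GH3.3, both estradiol arrays lay above both mock arrays, as they did in 16.1% of all probe sets, and in 0 of 4 both lay below, against 18.0% of all probe sets. GH3.3 was also the one member past 2-fold between geometric means, where 3.72% of all probe sets were as much higher and 3.34% as much lower. The thresholds of the study's methods, a 2-fold change and an unadjusted P under 0.05 by the methods' t-test, taken here on log2 signals, were met by 0 of 4, against 0.629% of all probe sets for higher and 0.528% for lower signals. The study's own list of changed genes holds 0 of 4. Nothing is read from these counts and shares, since the genes were chosen with this comparison known. Over the 4 genes the log2 fold changes had a median of -0.39, against -0.0080 over all probe sets. Without estradiol replicate 1 the median of the 4 was 0.14.

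**Figure D2:**
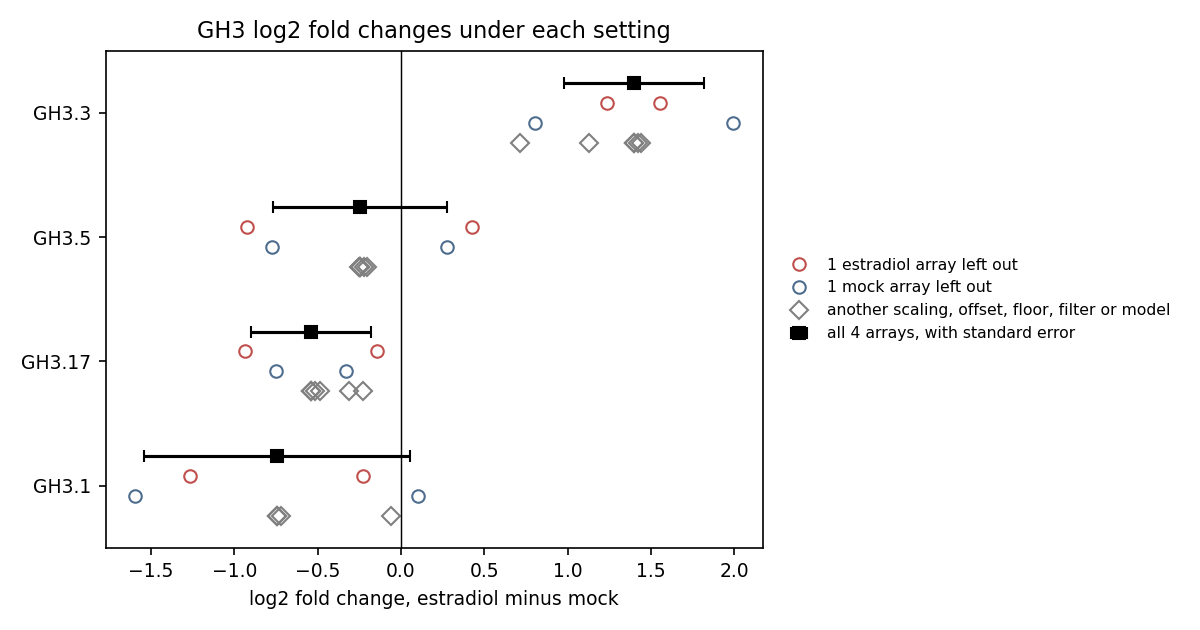
Log2 fold change (estradiol minus mock, x axis) of each measured GH3 gene with all 4 arrays (black square, bar of 1 standard error), with 1 array left out (circles) and under another scaling, offset, floor, filter or model (diamonds). GH3.3 stays above 0 at every setting, from 0.72 to 1.99, GH3.17 stays below 0, and GH3.5 and GH3.1 have circles on both sides of 0. For GH3.3 the circles could not cross 0, as its groups do not overlap.

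The genes whose 4 signals ran most like those of GH3.3 were sought among 7663 named probe sets that were not dim in both groups. Likeness was the Euclidean distance between log2 signals, each centred on its mean over the 4 arrays. The nearest was AT2G04050, annotated as a MATE efflux family protein, at a distance of 0.308 log2 units. LTI30, a dehydrin induced by cold, followed at 0.389, AT5G25640, annotated as a rhomboid-related protease, at 0.420, GSTU2, a tau-class glutathione S-transferase, at 0.424, and SUFE2, a SufE-like protein of iron-sulphur cluster assembly, at 0.456. LTI30, for instance, had signals of 423 and 398 after estradiol and 125 and 202 after mock, with mock replicate 1 the lowest array as in GH3.3. All 5 had both estradiol arrays above both mock arrays, as the likeness to GH3.3 requires in large part. All 5 are also in the study's own list of changed genes, against 2.19% of the 7663 probe sets compared. That list was drawn from these same arrays, so their presence in it is not independent evidence. GSTU2 could be named only through it, and of the 5 it alone met the methods' thresholds as taken here. The likeness rests on 4 arrays and is given as a description.

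The same search for GH3.5, added after its values were seen, returned genes that were high on estradiol replicate 2 and mock replicate 1. The nearest was AT4G29420, at a distance of 0.234, with signals of 15.9 and 42.7 after estradiol and 41.6 and 25.0 after mock. Next came AT1G64500, at 0.252, with signals of 44.1 and 124 after estradiol and 154 and 65.9 after mock. The tables used here give no gene name to either locus or to the other 3 of the 5 nearest, whose distances reached 0.371. The groups overlapped in all 5.

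**Figure D3:**
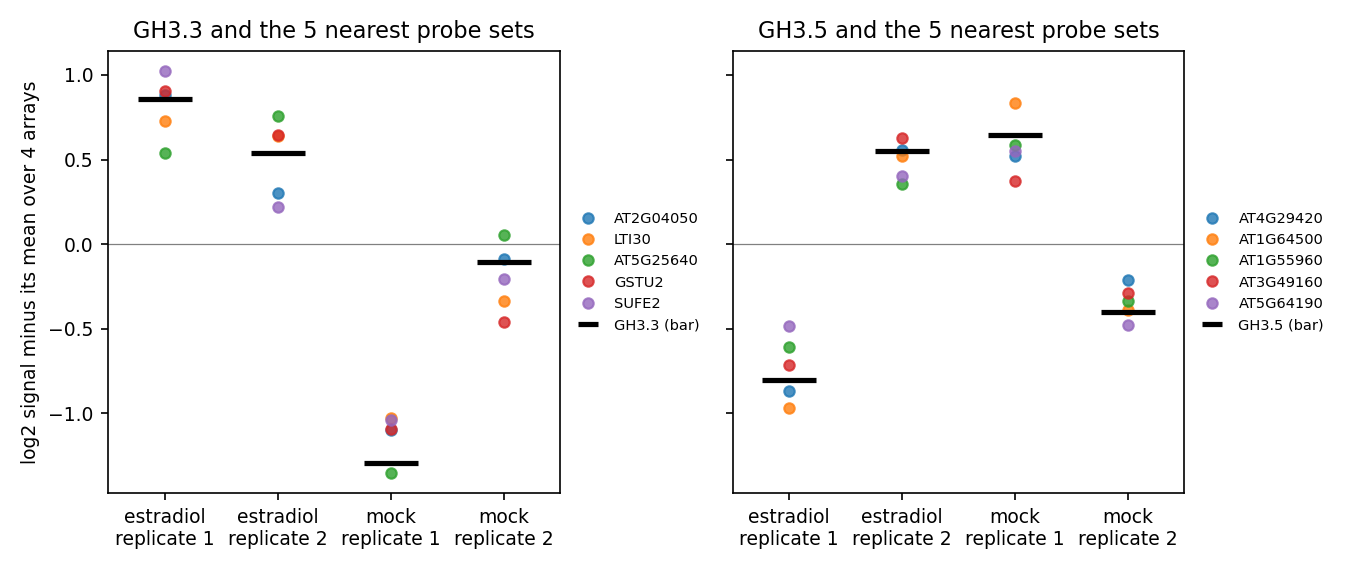
Log2 signal minus its mean over the 4 arrays (y axis) on each array (x axis) for GH3.3 (left) and GH3.5 (right), drawn as black bars, and for the 5 probe sets nearest to each, drawn as points. GH3.3 and its neighbours are high on both estradiol arrays and lowest on mock replicate 1, whereas GH3.5 and its neighbours are high on 1 array of each group.

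Other genes of auxin biology were then compared by role. Lists covered the other GH3 genes, Aux/IAA repressors, SAUR genes, auxin response factors, TIR1/AFB receptors and synthesis enzymes. They also covered conjugate hydrolases, other inactivating enzymes, transporters and further auxin-induced genes. The lists gave 17 genes with a gene name in the sources used here and a probe set named by the platform table. A further 8 listed loci had such a probe set but no gene name, and their values were left out. Of the other GH3 genes, 7 of 12 had a probe set and 1 was kept. Of the other inactivating enzymes, 4 of 6 had a probe set and 2 were kept, with AT1G14130 and AT1G14120 left out. Most listed genes could not be matched to a probe set, with 7 of 29 Aux/IAA genes and 4 of 14 synthesis genes measured. For SAUR genes 1 of 17 was measured and for transporters 1 of 22, both named only through the study's list. No probe set could be named for the response factors, the receptors or the hydrolases that free IAA from its conjugates. At an adjusted p under 0.05, limma called 0 of the 17 as higher and 0 as lower, against 0% of all probe sets. An unadjusted limma p under 0.05 was found for 0 of the 17, against 6.51% of all probe sets. The methods' thresholds were passed by 0, against 0.629% for higher and 0.528% for lower signals. Their median log2 fold change was -0.15. Of the 17, 12 were dim in both groups, beside 8686 of all 22746 probe sets. In 2 of the 17 both estradiol arrays lay above both mock arrays and in 4 both lay below. The shares of all probe sets were 16.1% and 18.0%, as given above.

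Families linked to the early auxin response were represented by Aux/IAA genes, HAT2 and LBD genes. Many Aux/IAA proteins bind the response factors and hold them inactive until auxin triggers their breakdown, and many of their genes are induced by auxin. Whether those measured here respond to auxin as GH3.3 does was not tested. Of 7 measured, 0 were called, as was 0% of all probe sets, and their median log2 fold change was -0.20. IAA18, the one that was not dim in both groups, had signals of 246 and 292 after estradiol and 249 and 215 after mock, with overlapping groups and a log2 fold change of 0.21 (SE 0.16; limma, adjusted p = 0.941). IAA31, which was dim in both groups, had signals of 8.28 and 9.21 after estradiol and 15.0 and 14.7 after mock, a log2 fold change of -0.76 (limma, adjusted p = 0.801). IAA29, also dim, stood at -0.30. The homeobox gene HAT2, induced early by auxin, had signals of 76.7 and 98.0 after estradiol and 87.7 and 76.2 after mock, and a log2 fold change of 0.085. LBD16, a transcription factor of lateral root formation that acts downstream of response factors, had signals of 26.4 and 35.6 after estradiol and 37.8 and 42.3 after mock. Both estradiol arrays were below both mock arrays, but the log2 fold change of -0.38 was not called (limma, adjusted p = 0.918). LBD29, its relative, was dim and overlapped. Whether GH3.3 differed from these genes was not tested.

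Of the measured synthesis enzymes, 3 of 4 were dim in both groups, and of the other inactivating enzymes 1 of the 2 kept. The hydrolases that act after conjugation could not be matched to a probe set and were not analysed here. YUC2, a flavin monooxygenase of the last step of IAA synthesis, had signals of 35.8 and 44.8 after estradiol and 42.8 and 46.1 after mock, with overlapping groups and a log2 fold change of -0.15. YUC4, YUC6 and YUC11 were dim in both groups, with log2 fold changes of 1.72, 0.38 and -0.98, none of them called. UGT74D1, a glucosyltransferase that can act on IAA, had signals of 231 and 365 after estradiol and 352 and 293 after mock. Its groups overlapped, and its log2 fold change was -0.15. UGT84B1, a second IAA glucosyltransferase, was dim in both groups, with mock signals of 8.29 and 0.687 on either side of the estradiol signals of 3.35 and 1.77. GH3.9, the other GH3 gene that was kept, was dim and overlapped, with a log2 fold change of -0.26 and a standard error of 0.37.

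A further 2 auxin genes could be named only through the study's list of changed genes, and because the study chose them on these same arrays their values are not independent evidence. PILS5, a PIN-LIKES carrier that draws auxin into the endoplasmic reticulum, where it is kept from nuclear signalling, had signals of 640 and 634 after estradiol and 306 and 298 after mock. Replicates were close in both groups, and the log2 fold change was 1.08 with a standard error of 0.14 (limma, adjusted p = 0.338). SAUR6, of the small auxin-upregulated RNA family, had signals of 130 and 182 after estradiol and 352 and 432 after mock. Both estradiol arrays lay below both mock arrays, and the log2 fold change was -1.34 with a standard error of 0.21 (limma, adjusted p = 0.346).

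**Figure D4:**
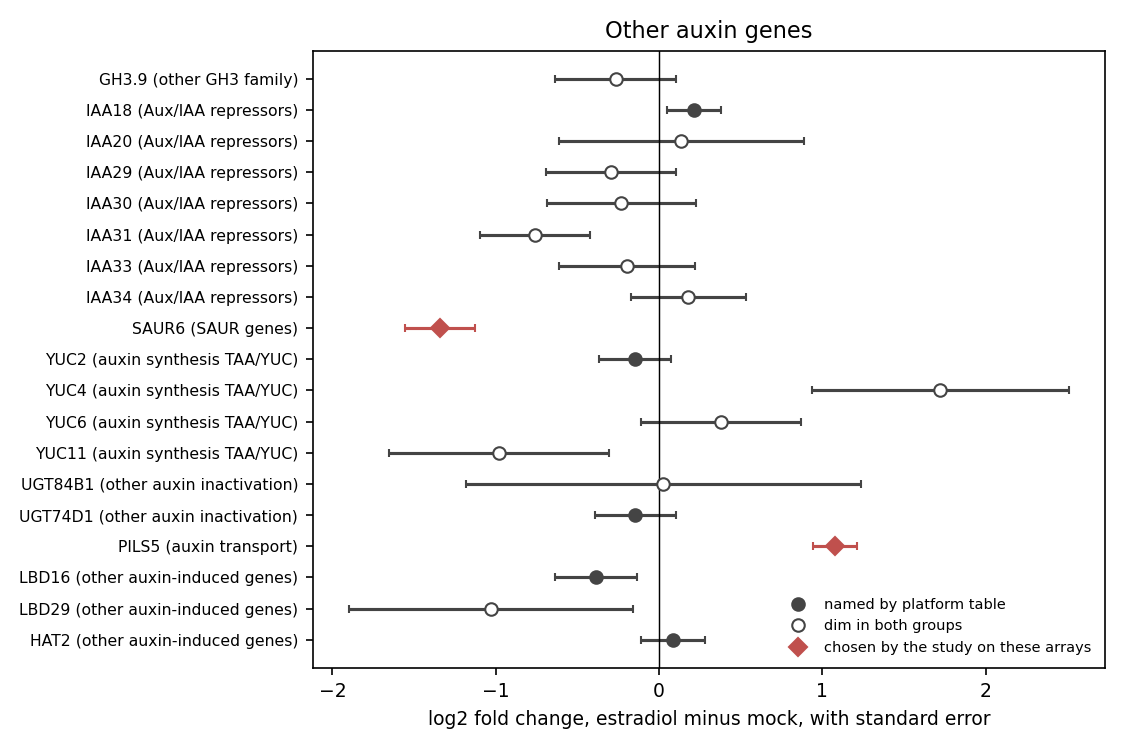
Log2 fold change (estradiol minus mock, x axis) with 1 standard error for the other auxin genes that could be named, open where the probe set was dim in both groups and as red diamonds where the gene is named only by the study's list drawn from these arrays. The 17 genes named by the platform table scatter around 0, with a median of -0.15, and PILS5 at 1.08 and SAUR6 at -1.34 stand on opposite sides.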

How the data were processed

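RNA of 2 estradiol and 2 mock samples was measured on Affymetrix ATH1 arrays. The authors deposited intensity values on a linear scale, 1 signal per probe set, summarised with MAS5 and, as the values show, scaled to an array mean of 100.0 once the lowest and highest 2% are set aside. The MAS5 version and any step between arrays are not stated in the sources used here. The number of arrays limits the precision. The methods call the replicates biological.

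Log2 signals of 22746 probe sets (64 of 22810 were controls) entered limma 3.58.1 under R 4.3.3 (lmFit, eBayes with an intensity trend, all 4 arrays, no block), with Benjamini-Hochberg adjustment over all of them. Scripts were tested on simulated data. Probe sets were named through the platform table and RefSeq locus tags (TAIR10.1 annotation) and, where unlisted, Supplementary Data 1. A further 8 list loci with a probe set were left out, as the tables give them no gene name. Members and lists were chosen with earlier results of these data known. Named are the measured members, KUA1, up to 3 genes per auxin list by smallest limma p, and the 5 probe sets nearest in pattern to GH3.3. RCA, YUC2 and the genes nearest to GH3.5 were named after their values were seen.

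Alternatives were quantile normalization, median centring, log2(signal + 32), low signals set to the 40th percentile of their array (probe sets at it on every array left out), omission of dim probe sets, no intensity trend, the replicate number as a block, each array left out, and the methods' t-test on linear signals or adjusted.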

Additional observations from a re-analysis of the deposited data

How the results depend on the processing

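GH3.3 stayed higher after estradiol under each alternative run, and GH3.17 stayed lower, whereas GH3.5 and GH3.1 changed sign with the array left out. For GH3.3 the sign could not turn when 1 array was left out, since both estradiol arrays lay above both mock arrays. The intensity trend and the replicate block leave a fold change as it is, so these settings do not test the sign. Leaving out 1 array moved the median log2 fold change of the 4 GH3 genes between -0.58 and 0.14, and that of the 17 other auxin genes between -0.31 and 0.079. It left 0 probe sets called by limma in either direction. The array left out belongs to a group of 2, so its remaining partner is assumed to vary like the others. Single genes changed sign as well, with ranges from -0.54 to 0.0096 for GH3.9, -1.77 to 1.82 for UGT84B1, -0.48 to 0.18 for UGT74D1, -2.14 to 0.079 for LBD29 and -0.092 to 0.26 for HAT2. UGT84B1 was also -0.053 under quantile normalization and -0.071 on log2(signal + 32).

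Taken on log2 signals, the methods' thresholds were passed by 143 higher and 120 lower probe sets, which are not the study's own counts. The counts were 30 and 6 on log2(signal + 32), 55 and 22 with the floor at the 40th percentile, 59 and 24 without the dim probe sets, and 0 and 0 after Benjamini-Hochberg adjustment. The labels number the replicates 1 and 2 in both groups without stating a pairing. With the replicate block limma called 0 probe sets. Deviations of same-numbered arrays were weakly and negatively correlated, with r = -0.13 across all probe sets and r = -0.30 across those not dim in both groups. The crossed pairing, added after seeing the data, gave 3 higher and 0 lower. Low signals limit GH3.1 on every array.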
